A study of Mus musculus with 6 samples.

Results

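The carboxylesterases described here are 10 genes, Ces1b, Ces1c, Ces1d, Ces1e, Ces1f, Ces1g, Ces2a, Ces2e, Ces3a and Ces3b, of the 56847 gene rows measured. They were taken by symbol from a list that was selected on the measured difference between the diets in these same libraries, so their difference between the diets is given as a description and carries no test. All 10 symbols had a row, and all 10 passed the filter on low counts that left 14215 genes for testing. Liver RNA of mice was sequenced in 3 libraries from a normal diet and 3 from CDAHFD (a high-fat diet that lacks choline and has a defined amino acid content, given to rodents to bring about steatohepatitis). The labels give no genotype, strain, sex, age or length of feeding for either group, and the study's title concerns ALDH18A1 in steatohepatitis. Nor do they say whether a library stands for 1 animal, so errors and p-values reflect the spread among these samples, which may be technical.

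Carboxylesterases are serine hydrolases that hepatocytes make in large amounts. Most sit in the lumen of the endoplasmic reticulum, where they cleave the ester and amide bonds of drugs and of lipids such as triacylglycerols and cholesteryl esters, and some are secreted into the blood. In mice the family has expanded by gene duplication, and single members have been tied to the release of stored triglyceride for very-low-density lipoprotein (VLDL), the particle in which liver exports fat.

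What marks a carboxylesterase in its sequence is the nucleophilic serine of the active site, which sits between 2 conserved glycines. The coding bases around it are shown for 5 members to illustrate how similar the genes are at their catalytic centre, each as 30 coding bases with the serine codon in capitals, read from GENCODE M21 transcripts.
Ces1b: gtctttgggtcaTCAgcaggaggtgtcagt
Ces1c: atctttggagagTCAtcagggggtatcagt
Ces1d: atctttggagagTCAgcaggaggtttcagt
Ces2a: atatttggagtcTCAgcaggaggtacaagt
Ces3a: atcttcggtaacTCTgctggaggcattatt
A window of this kind occurred once in each of the 10 coding sequences, which are 554 to 571 codons long without the stop codon. This window was searched in a form loosened after the sequences were seen. The stricter form chosen at first, with codons for glycine, glutamate, serine, alanine, glycine and glycine in a row, was found in 5 of the 10 (Ces1d, Ces1e, Ces1f, Ces1g and Ces2e). Many liver carboxylesterases that stay in the endoplasmic reticulum end in a retrieval signal of histidine, any residue, glutamate and leucine. The last 30 coding bases before the stop codon are printed for every member, because this end can hold that signal, with the last 4 codons in capitals.
Ces1b: acagaccctactgagcacAGAGAACACAAA
Ces1c: acagaccctactgaacacACAGAACACAAA
Ces1d: aggccatcccacagggaaCATGTTGAGCTC
Ces1e: aagcaactgccgacagaaCACACTGAGCTG
Ces1f: aaacaaccccagccatacCACAATGAGCTG
Ces1g: aggtcatcccatagggaaCATGTTGAACTG
Ces2a: aagggttctcaggacaagCATGCAGAGCTG
Ces2e: aaggggtctcaggagaggCACAAAGAGTTG
Ces3a: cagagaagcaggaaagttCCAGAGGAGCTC
Ces3b: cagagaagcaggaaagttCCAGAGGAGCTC
The retrieval codons were present in 6 members, Ces1d, Ces1e, Ces1f, Ces1g, Ces2a and Ces2e. They were not matched in Ces1b, Ces1c, Ces3a and Ces3b. Where the proteins reside was not measured, so a missing match does not show that a member is secreted. Ces1c is known as the esterase of mouse plasma, and the end of Ces3a was identical to that of Ces3b over the 30 bases printed. The 5 members with the largest decrease on CDAHFD were Ces2a, Ces1e, Ces1f, Ces1d and Ces3b. Of those 5, 4 carry the retrieval codons, as do 6 of all 10 members, and Ces3b does not. Ces1g and Ces2e carry the codons too and differed far less, with log2 changes of -0.25 and -0.56 (described below).

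Near-identical copies matter for the counts, since a read that fits several copies is assigned by rules not given in the sources used here. Ces3a and Ces3b were the closest pair, with 95.3% of aligned coding bases identical, and 33.9% of the 50-base words of either gene also occurred in another carboxylesterase. Ces1b and Ces1c followed, at 91.2% identity, with 12% and 14.2% of their words shared. Of the genes with steep decreases, Ces2a shared 2.76% of its words with other family members, Ces1e 3.96%, Ces1d 1.52% and Ces1f 0.611%. Ces3b also fell steeply, and its share is the 33.9% given above. Ces1g and Ces2e differed less between the diets and shared 2.37% and 5.46%. The split of reads within the pairs Ces3a with Ces3b and Ces1b with Ces1c is therefore less certain than the values of the other 6 genes.

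Summed over the members, CDAHFD livers carried less carboxylesterase mRNA, and with TMM scaling the decrease ran from 1.18-fold to 13.5-fold between genes. The smallest decreases, those of Ces3a and Ces1g, overlapped between the diets and turned to increases with total counts and in TPM. Levels are given below as TPM, the authors' length-scaled values, because these can be set side by side between genes. Each change is the log2 ratio of CDAHFD to normal diet in the counts, with its standard error, scaled by TMM (a normalisation that assumes most genes do not differ) and fitted with edgeR's quasi-likelihood model, n = 3 libraries per diet. Every member was counted deeply, with between 594 and 57682 reads per library. In bulk tissue, fewer cells of a type and less RNA per cell cannot be told apart.

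**Figure D1:**
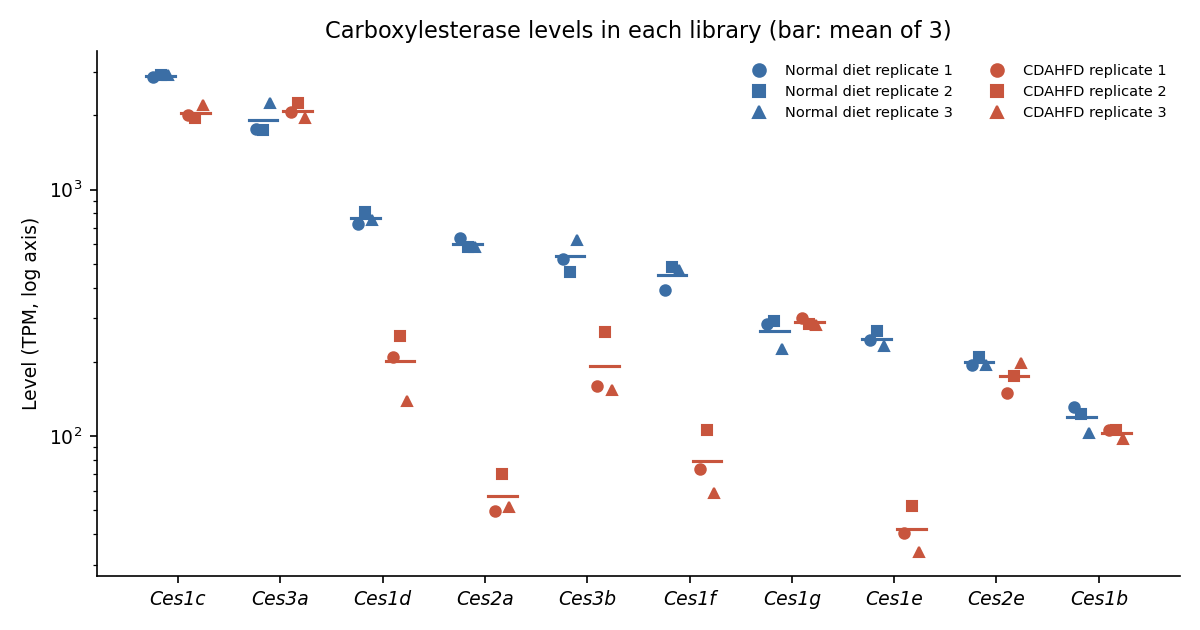
Level of each of the 10 carboxylesterases in TPM on a log axis, 1 point per library, with blue for normal diet, red for CDAHFD and a bar for the mean of 3. Ces1c and Ces3a stand highest on both diets, and Ces1d, Ces2a, Ces3b, Ces1f and Ces1e drop furthest, with the red points well below the blue.

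Ces1d encodes triacylglycerol hydrolase, an enzyme of the endoplasmic reticulum that mobilises stored triglyceride for VLDL. Its level was 727, 812 and 754 TPM in normal diet replicates 1 to 3 and 208, 255 and 139 TPM in CDAHFD replicates 1 to 3. The diets did not overlap, and the change was -2.28 ± 0.20, or 4.87-fold lower. Ces1f, also called TGH-2, is a related lipid hydrolase. It stood at 392, 487 and 472 TPM on normal diet and at 73.4, 105 and 58.6 TPM on CDAHFD, a change of -2.86 ± 0.21. In both genes CDAHFD replicate 2 was the highest of its diet and replicate 3 the lowest.

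Ces1e encodes egasyn, the esterase that binds β-glucuronidase and holds it in the endoplasmic reticulum. On normal diet its libraries read 245, 267 and 232 TPM, and on CDAHFD 40.4, 51.8 and 33.9 TPM. The change was -2.92 ± 0.16, 7.57-fold lower, and every CDAHFD library lay below every normal diet library. Gusb, the gene of β-glucuronidase, is named here after its values were seen. It rose from 38.1 ± 1.08 to 76.2 ± 3.42 CPM (CPM, counts scaled to a common library size, mean ± SD), a change of 1.00 ± 0.10. As a description, the mRNA of this partner was higher on CDAHFD where that of Ces1e was lower. The part of cell makeup in this was not tested.

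Ces1g, also called Es-x, is a lipid hydrolase whose loss in mice leads to fatty liver and high blood lipids. It was measured at 285, 292 and 224 TPM on normal diet and 301, 285 and 283 TPM on CDAHFD. The diets overlapped. The change was -0.25 ± 0.12 with TMM scaling and turned positive with total counts, with the hepatocyte marker scaling described below and in TPM. Ces1d and Ces1g share 81.6% of aligned coding bases and end in the same kind of retrieval codons, yet the ratio of Ces1d to Ces1g in TPM went from 2.89 ± 0.417 to 0.693 ± 0.203 (SD, n = 3). This ratio is taken within a library and so does not depend on how libraries are scaled.

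Ces1c, the plasma esterase, was the most abundant member on normal diet. It read 2865, 2908 and 2929 TPM there and 2006, 1950 and 2201 TPM on CDAHFD, again without overlap. Its change of -0.87 ± 0.11 corresponds to 54.8% of the normal diet level in TMM-scaled counts, a larger decrease than in TPM. Ces1b, its near-copy, was the least abundant member on normal diet, at 131, 123 and 103 TPM, against 105, 105 and 97.6 TPM on CDAHFD. In TPM the diets overlapped for Ces1b, and in CPM they did not, with a change of -0.58 ± 0.12. Reads may be split between these 2 genes. Their sum is the firmer value if each shared read was counted once, which is not known. The sum went from 2880 ± 127 to 1591 ± 58.1 CPM, a log2 ratio of -0.86.

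Ces2a, an esterase reported to act on acylglycerols, had the largest difference of the 10. It was at 633, 583 and 587 TPM on normal diet and at 49.4, 70.2 and 51.7 TPM on CDAHFD. The change was -3.76 ± 0.17, and in TMM-scaled counts CDAHFD libraries held 7.39% of the normal diet level. Ces2e, the member closest to it in sequence with 83.3% of aligned coding bases identical, differed far less. Normal diet libraries read 194, 209 and 195 TPM and CDAHFD libraries 150, 175 and 199 TPM, which overlap, and its change in counts was -0.56 ± 0.12. Accordingly the ratio of Ces2a to Ces2e in TPM went from 3.02 ± 0.234 to 0.330 ± 0.0699 (SD, n = 3), and every CDAHFD library lay below every normal diet library in it.

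Ces3a differed little between the diets with TMM scaling. Its values were 1758, 1751 and 2246 TPM on normal diet and 2066, 2257 and 1950 TPM on CDAHFD, which overlap, and the change was -0.24 ± 0.15. Ces3b lies beside it on the chromosome. It read 524, 463 and 625 TPM on normal diet and 159, 264 and 153 TPM on CDAHFD without overlap, a change of -1.85 ± 0.22. The ratio of Ces3a to Ces3b in TPM was 3.36, 3.78 and 3.59 in the normal diet libraries, against 13, 8.56 and 12.7 on CDAHFD. This ratio rests on how reads of a 95.3% identical pair were divided. Provided each shared read was counted once, which is not known, the summed counts of the pair do not depend on that division. They came to 2658 ± 472 CPM on normal diet and 1922 ± 239 CPM on CDAHFD, and the summed TPM to 2456 ± 362 and 2283 ± 214.

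**Figure D2:**
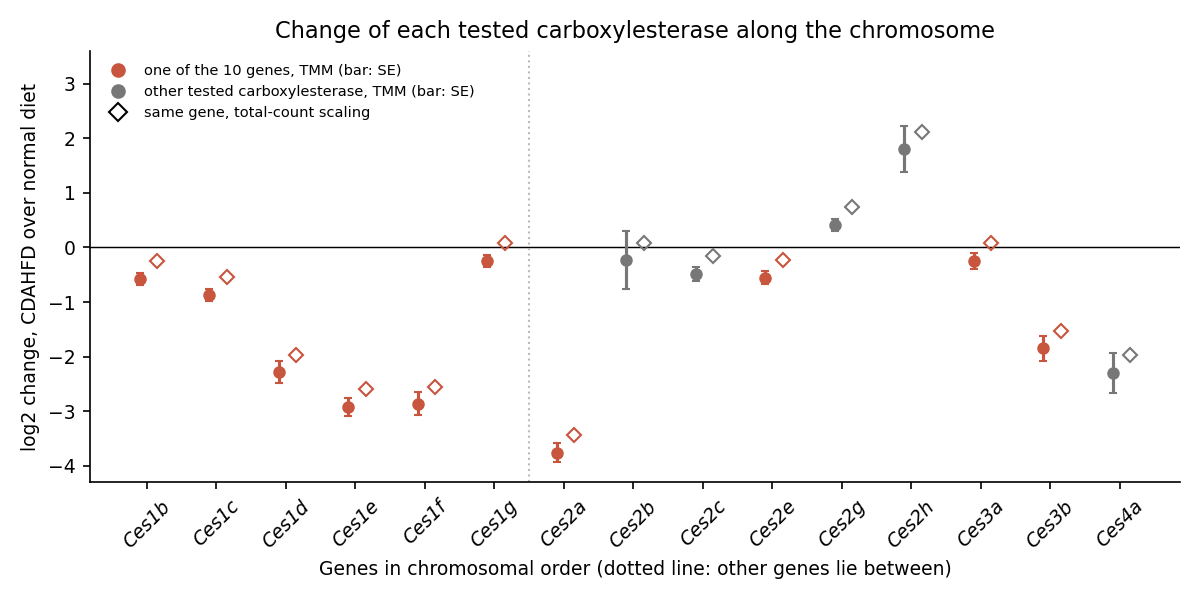
Change in log2 of CDAHFD over normal diet for the 10 genes (red) and the 5 other carboxylesterases that could be tested (grey), in their order on the chromosome, as filled circles with standard errors (TMM scaling) and open diamonds (total-count scaling). Ces1d, Ces1e and Ces1f form the low stretch of the first cluster, and Ces2a, Ces3b and Ces4a stand low in the second.

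All carboxylesterase genes lie on chromosome 8 in 2 clusters, in the RefSeq order of the GRCm38.p6 assembly. The first runs from Ces1a to Ces1h and Ces5a, and the second from Ces2a through the Ces2 genes to Ces3a, Ces3b and Ces4a. Ces1d, Ces1e and Ces1f are direct neighbours, and their summed level went from 1580 ± 64.5 to 267 ± 83.4 CPM, 5.93-fold lower. Their neighbours on either side, Ces1c and Ces1g, differed less, at -0.87 and -0.25. In the second cluster the members stood in the order Ces2a at -3.76, Ces2e at -0.56, Ces3a at -0.24 and Ces3b at -1.85.

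RefSeq (GRCm38.p6) lists promoters, 250 bases before to 50 bases after a start site, for 7 of the 10 members, with none for Ces1d, Ces1f and Ces3a. Exact matches to 5 motifs were looked for on both strands: TATAAA (the core promoter box), CAAAGTCCA (HNF4-type), TTNNGCAA (C/EBP-type), GTTAAT (HNF1-type) and AGGTCA (nuclear receptor half-site). Ces2a and Ces2e are shown because their coding sequences are close and their changes far apart, with matched letters in capitals. Ces2a is at chr8:104733753-104734052 and Ces2e at chr8:104926010-104926309, both on the plus strand.
Ces2a: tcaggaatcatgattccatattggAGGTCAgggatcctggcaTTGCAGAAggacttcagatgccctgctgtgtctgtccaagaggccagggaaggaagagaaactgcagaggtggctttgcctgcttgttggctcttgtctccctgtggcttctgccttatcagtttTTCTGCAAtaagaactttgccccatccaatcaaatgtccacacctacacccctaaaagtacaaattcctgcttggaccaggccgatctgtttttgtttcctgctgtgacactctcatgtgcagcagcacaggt
Ces2e: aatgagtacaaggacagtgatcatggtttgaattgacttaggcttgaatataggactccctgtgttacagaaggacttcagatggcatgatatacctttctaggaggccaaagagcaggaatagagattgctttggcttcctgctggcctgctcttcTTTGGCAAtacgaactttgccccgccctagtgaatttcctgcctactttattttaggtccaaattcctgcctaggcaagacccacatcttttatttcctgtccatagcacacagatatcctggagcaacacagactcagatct
Of aligned bases without gaps, 69.4% were identical between these 2 promoters. Both hold a C/EBP-type match on the strand printed, which begins 83 bases before the start site in Ces2a and 93 bases before it in Ces2e. Ces2a has in addition an AGGTCA match 226 bases before the start site and a C/EBP-type match on the opposite strand 208 bases before it. Ces1e and Ces1g are shown as the steep and the flat member of the first cluster that have an entry. Ces1e is at chr8:93229570-93229869 and Ces1g at chr8:93337160-93337459, both on the minus strand.
Ces1e: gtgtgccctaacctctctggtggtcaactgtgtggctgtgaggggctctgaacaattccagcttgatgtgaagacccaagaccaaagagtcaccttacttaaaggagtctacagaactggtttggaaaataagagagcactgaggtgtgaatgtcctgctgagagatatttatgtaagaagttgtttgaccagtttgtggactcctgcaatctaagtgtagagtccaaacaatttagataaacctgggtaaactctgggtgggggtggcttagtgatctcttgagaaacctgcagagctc
Ces1g: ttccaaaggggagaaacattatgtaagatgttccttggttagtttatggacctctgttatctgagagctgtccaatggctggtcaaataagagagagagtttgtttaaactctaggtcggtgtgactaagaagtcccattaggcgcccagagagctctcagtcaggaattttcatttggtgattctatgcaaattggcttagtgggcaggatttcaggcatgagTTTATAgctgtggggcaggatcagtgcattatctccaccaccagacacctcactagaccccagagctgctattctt
Ces1e held none of the 5 motifs, and Ces1g held a TATAAA match on the opposite strand 26 bases before the start site. Over all 7 members, the C/EBP-type motif was found in 4 (Ces1b, Ces1c, Ces2a and Ces2e), against 10.8% of 32851 promoters of the same length. TATAAA was found in 2 (Ces1g and Ces3b) against 13.6%, GTTAAT in 1 (Ces3b) against 7.10%, AGGTCA in 1 (Ces2a) against 16.3%, and CAAAGTCCA in 0 against 0.475%. The shares over all promoters count entries, whereas a member was counted if any of its entries matched, and Ces1b has 2 overlapping entries. Those 2 entries share 93.4% and 95.4% of aligned bases without gaps with the Ces1c promoter. The C/EBP-type matches of Ces1b and Ces1c are therefore not independent. Ces2a and Ces2e, with 69.4% of aligned promoter bases identical, have their plus-strand matches in a similar stretch. Those matches may not be independent either, so the 4 of 7 is not a count of separate promoters. All of these are matches of letters in short windows.

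Summed over the 10 genes, carboxylesterase mRNA was 8190 ± 593 CPM on normal diet and 4195 ± 305 CPM on CDAHFD, 1.95-fold lower. Its share of all counts was 0.712%, 0.692% and 0.791% in the normal diet libraries, against 0.456%, 0.496% and 0.453% on CDAHFD. Most of what remained came from 2 genes. Ces1c and Ces3a together made up 60.2% ± 1.5 of the summed TPM of the 10 genes on normal diet and 78.5% ± 2.10 on CDAHFD (SD, n = 3). The other 8 genes together went from 3320 ± 118 to 906 ± 156 CPM, 3.67-fold lower.

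**Figure D3:**
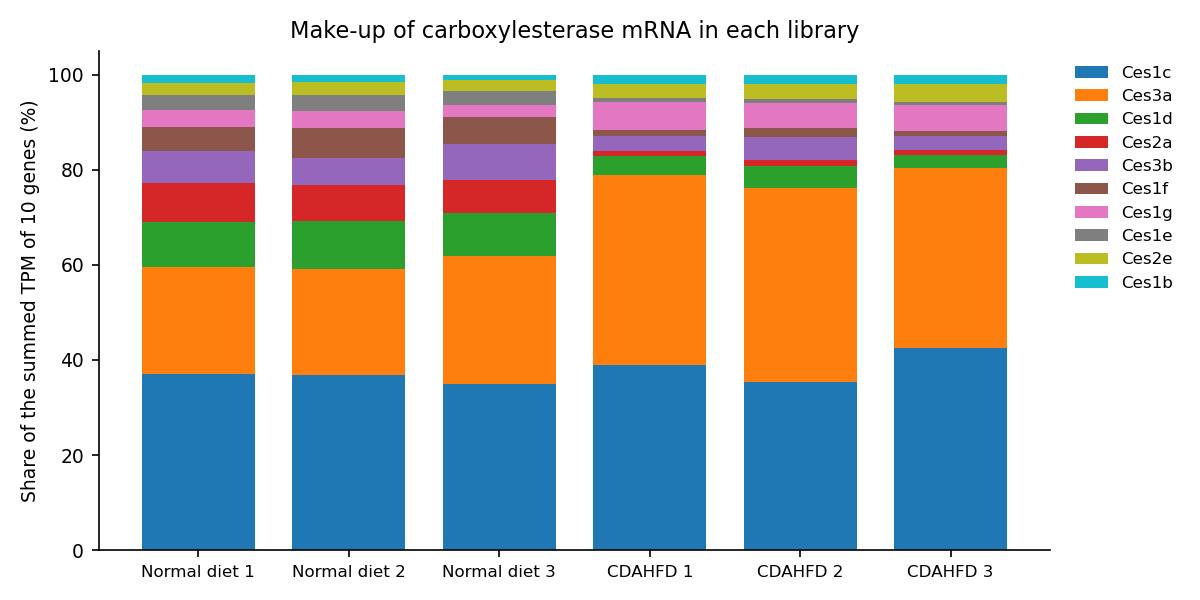
Share of the summed TPM of the 10 carboxylesterases taken by each gene, in percent, 1 bar per library. Ces1c keeps 35.0% to 42.6% in all 6 libraries, Ces3a goes from 22.2% to 26.8% on normal diet to 37.8% to 40.9% on CDAHFD, and Ces2a shrinks to 0.957% to 1.27%.

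The make-up of the family mRNA thus differed between the diets. The share of Ces3a in the summed TPM was 23.9% ± 2.57 on normal diet and 39.6% ± 1.63 on CDAHFD. That of Ces2a went from 7.52% ± 0.588 to 1.08% ± 0.171, and that of Ces1d from 9.55% ± 0.656 to 3.78% ± 0.997. Ces1g, at 3.35% ± 0.582 on normal diet, took 5.49% ± 0.340 on CDAHFD. The order of the levels changed with it. On normal diet it ran Ces1c, Ces3a, Ces1d, Ces2a, Ces3b, Ces1f, Ces1g, Ces1e, Ces2e and Ces1b. Neighbours whose libraries overlapped there were Ces2a with Ces3b, Ces3b with Ces1f, and Ces1g with Ces1e. On CDAHFD the order was Ces3a, Ces1c, Ces1g, Ces1d, Ces3b, Ces2e, Ces1b, Ces1f, Ces2a and Ces1e. There the libraries overlapped for Ces3a with Ces1c, Ces1d with Ces3b, Ces3b with Ces2e, Ces1b with Ces1f, Ces1f with Ces2a, and Ces2a with Ces1e. Ces2a moved from the fourth place to the ninth and Ces1g from the seventh to the third.

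How far the members went down depends on what the libraries are scaled to. Of the 10, 8 were called lower with TMM, where 23.5% of all tested genes were called lower and 28.5% higher, and 0 were called higher. In CPM, 8 of 10 had every CDAHFD library below every normal diet library, as did 28.4% of all tested genes. In TPM the number was 6 of 10, against 8.74% of all tested genes. With total counts as the scale, 6 members were called lower, where 8.07% of genes were called lower and 44% higher. With libraries scaled to 19 hepatocyte marker genes, 6 members were again called lower, where 3.58% of genes were called lower and 56.4% higher. Since the members were selected on this contrast, nothing is read from these counts.

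As a description, the change of each member also depended on the scale. Relative to the hepatocyte markers the changes were -0.31 for Ces1c, -1.76 for Ces1d, -2.39 for Ces1e, -2.34 for Ces1f, -3.22 for Ces2a and -1.31 for Ces3b. On the same scale Ces1b and Ces2e stood at -0.03 and -0.01, while Ces1g at 0.30 and Ces3a at 0.31 lay above 0. With total counts Ces1g and Ces3a were each at 0.08. The median change of the members was -1.36 with TMM, -1.04 with total counts and -0.81 relative to the hepatocyte markers, while the median of all tested genes moved from 0.01 to 0.34 and 0.56.

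Markers of several other cell types moved with the diet. With TMM most endothelial markers did not, and adipocyte markers could not be tested. Over all tested genes 23.5% were called lower and 28.5% higher with TMM. The summed CPM of 19 hepatocyte markers ranged from 173813 to 197316 on normal diet and from 125016 to 142004 on CDAHFD, and 15 of the 19 fell while 1 rose with TMM (12 and 2 with total counts). For 11 macrophage markers it went from 398 to 542 up to 1759 to 1853, and 8 of 11 rose. All 8 stellate cell and fibroblast markers rose, with sums of 288 to 349 on normal diet and 1136 to 1314 on CDAHFD. Of 6 cholangiocyte markers, 5 were tested and all 5 rose, with sums of 26.9 to 33.5 and 157 to 202. Of 6 lymphocyte markers, 4 rose, with sums of 2.60 to 3.63 and 7.86 to 13.3. Of 6 endothelial markers, 1 rose, with sums of 282 to 312 and 300 to 338. The 5 adipocyte markers summed to at most 0.608 CPM in any library, none could be tested, and Plin1, Lep and Retn had at most 3 counts in all 6 libraries together.

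Ttr, the thyroxine carrier and a hepatocyte marker, fell by 0.67 ± 0.15 with TMM, against -2.28 to -3.76 for Ces1d, Ces1e, Ces1f and Ces2a. With total counts Ttr was at -0.35 (adjusted p = 0.0445). Its call was lost relative to the marker list that holds it, at -0.12 (adjusted p = 0.443). It was also lost with limma on log2(TPM + 1) and log2(TPM + 0.1), at -0.31 (adjusted p = 0.154 and 0.164). Alb, plasma albumin, was at -0.47 ± 0.15 with TMM (adjusted p = 0.0236), at -0.15 with total counts (adjusted p = 0.359) and at 0.08 relative to the marker list that holds it. Its call with TMM was lost without CDAHFD replicate 1, CDAHFD replicate 3 or normal diet replicate 1 (adjusted p = 0.0647, 0.068 and 0.087). Col1a1, a fibrillar collagen, rose by 5.05 ± 0.22, and Adgre1, the macrophage marker F4/80, by 1.55 ± 0.14. Clec4f, a marker of resident Kupffer cells, did not pass, at -0.29 ± 0.19 (adjusted p = 0.218). The part of cell makeup in the carboxylesterase differences was not tested.

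The CDAHFD libraries differed more among themselves than the normal diet libraries in several members. The standard deviation of log2 CPM of Ces1d was 0.0254 on normal diet and 0.488 on CDAHFD. For Ces1e it was 0.0493 and 0.349, for Ces1f 0.136 and 0.470, and for Ces2a 0.120 and 0.315. The other members were not all of this kind, since Ces1b had 0.182 and 0.0992 and Ces3a 0.246 and 0.149.

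**Figure D4:**
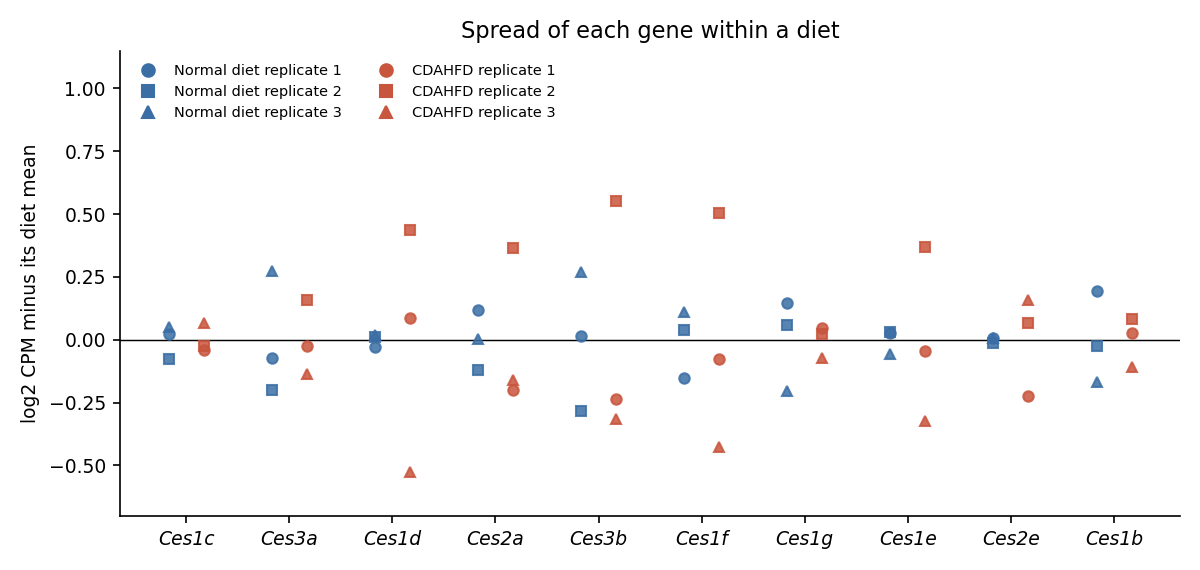
Deviation of each library's log2 CPM from the mean of its diet for the 10 carboxylesterases, with blue for normal diet, red for CDAHFD and a marker shape for each replicate number. CDAHFD replicate 2 (red squares) is highest of its diet in 7 of 10 genes, and by 0.55 in Ces3b.

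CDAHFD replicate 2 was the highest of its diet in 7 of the 10 members, as it was in 33.2% of all tested genes. It lay 0.55 above the diet mean in Ces3b, 0.50 in Ces1f, 0.44 in Ces1d, 0.37 in Ces1e and 0.36 in Ces2a. The same library was the highest CDAHFD library in 14 of the 19 hepatocyte markers, and its median deviation from the diet mean over all 19 was 0.11. Without it the changes were -2.56 for Ces1d, -3.19 for Ces1f, -4.00 for Ces2a and -2.22 for Ces3b. Correlations between members over the 6 libraries include the difference between the diets. Close pairs were Ces1e with Ces2a (Pearson r = 0.997, n = 6), Ces1e with Ces1f (r = 0.997) and Ces1d with Ces1f (r = 0.996). The closest to Ces3a was Ces3b, at 0.764.

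Outside the family, the genes whose log2 CPM over the 6 libraries followed the summed level of the members most closely were Ech1, an enzyme of fatty acid oxidation (r = 0.999), Rab14, a small GTPase of endosomal traffic, Ctsf, a lysosomal protease, Uqcc1, an assembly factor of respiratory complex III, and Whamm, an actin nucleation factor (r = 0.997 each). Of the 7899 genes compared, 9.05% had an r over 0.95.

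Of the 10 other carboxylesterase genes, the most abundant were Ces2c, at 82.8 ± 11.2 TPM on normal diet and 76.2 ± 5.11 TPM on CDAHFD, and Ces2g, at 39.7 ± 4.90 and 68.2 ± 6.49 TPM. On normal diet both lay below every member in mean TPM, and on CDAHFD both lay above Ces2a and Ces1e. Of the 10, 5 passed the filter on low counts and were tested in the fit over all genes, and 2 fell and 2 rose. In that fit, 23.5% of all tested genes fell and 28.5% rose. Ces2c, an acylcarnitine hydrolase, went from 78.6 ± 11.6 to 56.1 ± 3.18 CPM, a change of -0.49 ± 0.12 (adjusted p = 0.00549). Relative to the hepatocyte markers that change was 0.07 with an adjusted p of 0.727, and with total counts -0.16 with an adjusted p of 0.283. Ces4a fell by 2.30 ± 0.37 (adjusted p = 0.00037), from 87, 37 and 94 counts to 15, 26 and 16.

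Ces2g rose from 58.6 ± 7.61 to 77.9 ± 5.22 CPM, by 0.41 ± 0.12 (adjusted p = 0.0115), and every CDAHFD library lay above every normal diet library. That call was lost without CDAHFD replicate 3 (adjusted p = 0.064) and without normal diet replicate 1 (0.0672). Ces2h had only 3, 4 and 3 counts on normal diet and 14, 15 and 17 on CDAHFD, a change of 1.80 ± 0.43 (adjusted p = 0.00431). Ces2b did not pass, at -0.23 ± 0.53 (adjusted p = 0.740). Ces1a had 2, 2 and 2 counts on normal diet and 11, 3 and 4 on CDAHFD, Ces2d-ps between 0 and 3 in each library, and Ces1h, Ces2f and Ces5a 1 count each in all 6 libraries together.

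Other enzymes that act on neutral lipids went both ways. Of 17 tested, 7 fell and 4 rose with TMM, with a median change of -0.09. With total counts 7 fell and 7 rose, with a median of 0.24. Relative to the hepatocyte markers 4 fell and 9 rose, with a median of 0.47. Of all tested genes, 23.5% fell and 28.5% rose with TMM, and 8.07% and 44% with total counts. Relative to the hepatocyte markers, 3.58% fell and 56.4% rose. The share of the list that rose was near that of all genes on each scale. Aadac, a microsomal deacetylase of hepatocytes, fell by 1.13 ± 0.12 and Ddhd2, an intracellular lipase, by 1.30 ± 0.11. G0s2, the inhibitor of adipose triglyceride lipase, fell by 1.53 ± 0.31, and by 0.98 without normal diet replicate 3 (adjusted p = 0.000505). Lpl, the lipase of the vessel wall, rose by 2.75 ± 0.19, from 27.9 ± 8.62 to 188 ± 17.3 CPM. Pnpla2, adipose triglyceride lipase itself, did not pass at -0.02 ± 0.12, nor did Lipe, hormone-sensitive lipase, at 0.08 ± 0.15. With total counts they were at 0.30 (adjusted p = 0.0591) and 0.40 (0.0379), and relative to the hepatocyte markers both passed as higher, at 0.53 (0.004) and 0.63 (0.00365).

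Of 19 other ester and drug hydrolases, 8 fell and 3 rose with TMM, with a median of -0.31. With total counts 6 fell and 6 rose, with a median of 0.01. Relative to the hepatocyte markers 3 fell and 8 rose, with a median of 0.23. The shares of all tested genes were 23.5% and 28.5% with TMM, and 8.07% and 44% with total counts. Relative to the hepatocyte markers they were 3.58% and 56.4%. Acot1, a cytosolic acyl-CoA thioesterase, fell by 2.28 ± 0.21, a size like that of Ces1d. Ephx2, soluble epoxide hydrolase, fell by 1.30 ± 0.11 and Pon1, the paraoxonase of high-density lipoprotein, by 1.07 ± 0.14. Ephx1, microsomal epoxide hydrolase, was at -0.31 ± 0.16 and did not pass (adjusted p = 0.131), except without normal diet replicate 1 (-0.46, adjusted p = 0.0467). Aoah, which inactivates bacterial lipopolysaccharide, rose by 1.23 ± 0.25.

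The assembly of VLDL, for which Ces1d supplies lipid, needs Apob, the structural protein, and Mttp, which loads lipid onto it. Of 14 genes of lipoprotein assembly tested, 6 fell and 4 rose, and with total counts 2 fell and 5 rose. Over all tested genes 23.5% fell and 28.5% rose with TMM, and 8.07% and 44% with total counts. Mttp fell by 1.05 ± 0.11, less than Ces1d, and Sar1b, a GTPase of vesicle budding from the endoplasmic reticulum, by 1.00 ± 0.11. Mia3, a receptor for bulky cargo, fell by 0.67 ± 0.15, a call lost with total counts (-0.35, adjusted p = 0.0637) and relative to the hepatocyte markers (-0.13, adjusted p = 0.497). Apob was at -0.37 ± 0.14 (adjusted p = 0.0447), and this call was lost with total counts (adjusted p = 0.778) and turned to 0.17 relative to the hepatocyte markers. It was also lost without CDAHFD replicate 1 (adjusted p = 0.0738), CDAHFD replicate 3 (0.0963), normal diet replicate 1 (0.0999) or normal diet replicate 2 (0.138). Apobec1, which edits the Apob mRNA, rose by 1.34 ± 0.18.

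Among 19 nuclear receptors and liver transcription factors, 13 fell and 1 rose with TMM, with a median of -0.50. With total counts 5 fell and 4 rose, and relative to the hepatocyte markers 1 fell and 4 rose with a median of 0.09. The shares of all tested genes were 23.5% and 28.5% with TMM, and 8.07% and 44% with total counts. Relative to the hepatocyte markers they were 3.58% and 56.4%. Nr1h4, the bile acid receptor FXR, fell by 1.08 ± 0.13. Hnf4a, a master regulator of hepatocyte genes, fell by 0.59 ± 0.11, and Nr1i3, the drug-sensing receptor CAR, by 0.62 ± 0.16. Mlxipl, the glucose-responsive factor ChREBP, fell by 0.73 ± 0.13, Ahr by 0.71 ± 0.12 and Foxo1 by 0.70 ± 0.13. Relative to the hepatocyte markers Nr1h4 still fell, by 0.55 (adjusted p = 0.00363). On that scale the other 5 lost their calls, with Hnf4a at -0.03, Nr1i3 at -0.06, Mlxipl at -0.19, Ahr at -0.17 and Foxo1 at -0.17. With total counts Hnf4a (adjusted p = 0.0655) and Nr1i3 (0.123) lost theirs.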

How the data were processed

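For 6 mouse liver libraries, the authors deposited a table of raw counts by gene and a table of TPM (scaled by gene length and library total), per the file headers. Poly(A) libraries were made from 1 µg of RNA with a stranded ligation kit, per the labels' protocols, and alignment with STAR 2.7.11a to GRCm39 is named in the submitters' processing notes. How reads were counted, the annotation and the lengths used were not given in the sources used here. Libraries held 21986215 to 25628531 counts. Of 56847 gene IDs, 51911 matched a symbol.

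Genes were kept with filterByExpr (minimum count 10), which left 14215 of 26131 counted genes. edgeR 4.0.16 (R 4.3.3) scaled libraries by TMM and fitted a quasi-likelihood model with diet as its term, calling genes at a Benjamini-Hochberg adjusted p (over every tested gene) below 0.05. A change is CDAHFD over normal diet, CPM uses TMM-scaled totals, and log2 CPM has a prior count of 2. The standard error of a change was derived from the test, as its absolute value divided by the square root of the quasi-likelihood F statistic. Pairs of libraries of 1 diet had a chi-square of 17.5 to 39.7 per degree of freedom, so none looked like a library deposited more than once. The pipeline was tested on simulated data. Same-numbered libraries had correlations of deviations of -0.05 to 0.12, so numbers were not taken as pairs.

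Coding sequences came from GENCODE M21 transcripts, the longest coding transcript of each gene, and were aligned globally with Biopython 1.88. Identity leaves out gaps. The catalytic window was first sought in a stricter form and loosened after the sequences were seen.

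The members and all gene lists were chosen with earlier results of these data known. Gusb was named outside the rule that follows, after its values were seen. Named are the 10 members, all other carboxylesterases with a count, from each of 4 pathway lists the first 2 genes and up to 4 passing genes of largest change (mean 1 CPM or more), the first 2 of each of 7 cell marker lists where their values are used, and the 5 genes (mean 10 CPM or more) closest to the members' summed level. Alternatives were other scalings (RLE, total counts, TMM without the 20 most abundant genes, 19 hepatocyte markers), other filters, DESeq2 1.42.0, limma-voom (limma 3.58.1), limma on log2(TPM + 1) and log2(TPM + 0.1), the replicate block and leaving out each library.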

Additional observations from a re-analysis of the deposited data

How the results depend on the processing

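Each of the 10 members kept its direction under every alternative except Ces1g and Ces3a, which lay above 0 with total counts, hepatocyte marker scaling and TPM. With hepatocyte marker scaling Ces1b and Ces2e kept their sign only barely, at -0.03 and -0.01. Genes called higher (4057) numbered 6258 with total counts, 8014 with marker scaling, 6449 with log2(TPM + 1) and 6433 with log2(TPM + 0.1), and genes called lower (3347) numbered 1147, 509, 897 and 897. In the same order, the 4 pathway lists together had 22, 27, 23 and 23 genes higher (12 with TMM) and 20, 10, 16 and 16 lower (34), and the other carboxylesterases had 1 lower under each (2). The log2 change of the members' summed level (-0.97) was -0.64, -0.42, -0.60 and -0.60, and their median (-1.36) was -1.04, -0.81, -1.01 and -1.01. With at least 1 CPM in 3 libraries, 1 other carboxylesterase was higher (2), as Ces2h was then not tested. Leaving out each library gave 3530 to 4104 genes higher and 2871 to 3416 lower, 1 to 2 other carboxylesterases higher, a median of -1.55 to -1.28 and 8 to 9 members called lower.

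Single genes changed sign, and not only those near 0. Among them, Ces2c (-0.49) and Apob (-0.37) were called lower with TMM. With total counts, marker scaling and log2(TPM + 1), Ces2b was at 0.084, 0.30 and 0.010, Pnpla2 at 0.30, 0.53 and 0.33, and Ephx1 at 0.012, 0.23 and 0.068. With log2(TPM + 0.1), Pnpla2 was at 0.34 and Ephx1 at 0.068. Ces2c was at 0.070 and Apob at 0.17 with marker scaling, and Apob at 0.0048 with either TPM scale. Pnpla2 was at 0.0029 with the stricter filter. With single libraries left out, Ces2b ranged from -1.05 to 0.13, Pnpla2 from -0.19 to 0.010 and Lipe from -0.049 to 0.19. The cause of these shifts was not tested.

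With the replicate block the counts were 4046 higher and 3311 lower, the members' median was -1.38, and Apob lost its call (adjusted p = 0.0558). As a hint from the data only, 2 of 3 CDAHFD libraries correlated best with their own number, and the correlations of deviations (-0.05 to 0.12) were not all above 0.1, so the numbers were not taken as pairs. Depth limits Ces1a, Ces1h, Ces2d-ps, Ces2f, Ces2h and Ces5a, with 17 counts or fewer in any library.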

Other observations

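Ranked by TPM among all genes of a library, Ces2a went from places 189 to 205 on normal diet to places 1590 to 2215 on CDAHFD, and Ces1e from places 427 to 488 to places 2036 to 3056. Ces1f went from places 241 to 295 to places 1083 to 1921, and Ces1d from places 150 to 172 to places 468 to 871. Ces1c stayed among the most abundant transcripts, at places 42 to 46 on normal diet and 44 to 60 on CDAHFD. Ces3a was at places 56 to 71 and 48 to 57, and Ces1g at places 393 to 505 and 395 to 433.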
